A study of Mus musculus with 4 samples.

Results

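The transcripts of 46 genes of histone demethylases and of histone methyltransferases outside the MLL family were followed on 127 probe sets, out of 45101 probe sets on the array. A probe set is a group of short probes that reads 1 stretch of a transcript. Members were chosen by name alone: probe sets whose only gene symbol begins with Kdm followed by a digit from 1 to 8, or with Setd, Smyd, Prmt, Suv, Ehmt, Nsd or Whsc1, leaving out the Y-linked Kdm5d. They comprised 52 probe sets of 17 demethylase genes and 75 probe sets of 29 methyltransferase genes. RNA came from mouse leukemic cells that carried the MLL-AF9 fusion gene, had grown in C57BL/6 recipients and were purified from their bone marrow. There were 2 wild-type (WT) arrays and 2 Ezh2 KO arrays. The genotype label and the series' design name Ezh2 (Ezh2-/-) for the second group, whereas its protocol label describes recipients repopulated with Ink4a-/-Arf-/- marrow cells, so whether these cells also lacked Ink4a and Arf is not settled. No Cre, deletion method, age or number of leukemias is given in the sources used here, and nothing says that arrays of a group came from separate mice, so the p-values speak only to the spread over the arrays at hand, which may be technical.

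Histone lysine methyltransferases transfer methyl groups to particular lysines of the histone tails, and demethylases remove them. Ezh2 writes the repressive mark H3K27 methylation as the enzyme of the Polycomb complex PRC2, and Kdm6a and Kdm6b erase it. The Kdm1 enzymes are amine oxidases, whereas the other Kdm families carry a JmjC domain that uses iron and oxoglutarate. The Prmt enzymes methylate arginines, many of them in RNA-binding proteins, and several Setd and Smyd proteins act mainly on substrates other than histones: Setd3, for example, modifies actin. In MLL-AF9 leukemia, several of these enzymes, among them Kdm1a and Prmt5, have been studied as drug targets.

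The targeted genes do not settle the labels. The single probe set of Ezh2 read 5216 and 5315 on the WT arrays and 4989 and 4991 on the Ezh2 KO arrays (log2 change -0.08, SE 0.06, limma adjusted p = 0.532). Whether it reads the deleted exons was not analysed here, so it checks nothing about the deletion. Cdkn2a, which encodes both Ink4a and Arf, read 21.6 and 22.04 in WT and 41.2 and 22.05 in Ezh2 KO, around the filter intensity of 21.9 in every array but 1. Of 9 genes fixed as marks of myeloid leukemic cells, 9 passed the filter, among them Mpo, Kit, Hoxa9 and Meis1. Of their 16 probe sets 3 were called higher in Ezh2 KO (18.8%, against 4.08% of all), 1 each of Itgam, Csf1r and Meis1 (log2 changes of 0.74, 0.48 and 0.31). Lower was 1, of Cebpa (-0.63), or 6.25% against 3.91% of all. Among markers of other cells, 4 of 6 T and natural killer genes, 2 of 6 B cell genes and 3 of 8 macrophage genes (C1qa, C1qc and Marco) lay below it. The summed brightest probe sets of the 8 macrophage markers were 8867 and 9624 in WT and 4099 and 4510 in Ezh2 KO. Vcam1 (3.47-fold, limma adjusted p = 9.24e-06) and Cd68 (1.85-fold, adjusted p = 2.71e-04) were called lower there and 0 markers higher. Their probe sets made 4 of the 7 tested (57.1%, against 3.91% of all). Adgre1 did not pass, at 1567 and 1621 in WT and 1332 and 1576 in Ezh2 KO (-0.14, adjusted p = 0.463), nor did a dim probe set of C1qb (0.55, adjusted p = 0.615). The sums of 6 megakaryocyte markers were 413.5 and 418.2 in WT and 650.9 and 537.8 in Ezh2 KO, and those of 6 erythroid markers 4565 and 4489 against 4016 and 3716, with 0 probe sets of either list called. Their part in the differences below was not tested. Fewer cells of a type and less RNA per cell cannot be told apart in such samples.

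Across all members the groups differed little. Of the 127 probe sets, 113 passed the filter on dim values and were tested, covering 44 genes. The limma fit over 25580 probe sets, with Benjamini-Hochberg adjustment over all of them, called 4 members (3.54%) at an adjusted p under 0.05, against 7.98% of all probe sets tested. All 4 were higher in Ezh2 KO, where 4.08% of all probe sets were called higher. None was called lower by limma, where 3.91% of all were. This split depended on the scaling. With each array centred on its median, 1 member (Kdm6b) was called higher and 4 (Prmt1, Prmt5, Nsd3 and Setd6) lower. That made 4.42% of members, against 8.64% of all. With quantile normalization 2 were higher and 1 lower (together 2.65%, against 8.03% of all). With the probe sets of each gene averaged, Kdm6b was called higher and Setd7 and Prmt5 lower. For Setd7 this averaged a dim probe set at -1.51 with a bright one at -0.05. An unadjusted p under 0.05 was reached by 11 members in the higher direction (9.73%, against 11.4% of all) and 8 in the lower (7.08%, against 10.5%). The shares of all, 11.4% and 10.5%, apply equally to such counts by class and list below. The share of members called was below the background in this fit, and close to it with 1 probe set a gene (11.4%, against 11.8% of all) and at an adjusted p under 0.10 (12.4%, against 12.7%). The called probe sets belonged to 3 genes, Kdm6b, Kdm3b and Setd5, or 6.82% of the 44 genes tested against 11.5% of all genes. The median absolute log2 change was 0.18 in the members and 0.20 over all probe sets. Groups of arrays did not overlap in 56 of the 113 members (49.6%), against 50.4% of all: Ezh2 KO was the higher group in 37 (32.7%, against 27.3%) and the lower in 19 (16.8%, against 23.2%). The calls rest on a prior variance fitted along the intensity range. When 1 common prior was used instead, limma called 0 members and 0 of all 25580 probe sets, with 13 members at an unadjusted p under 0.05. At an adjusted p under 0.10 there were 8 members higher (7.08%, against 6.52% of all) and 6 lower (5.31%, against 6.19%).

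**Figure D1:**
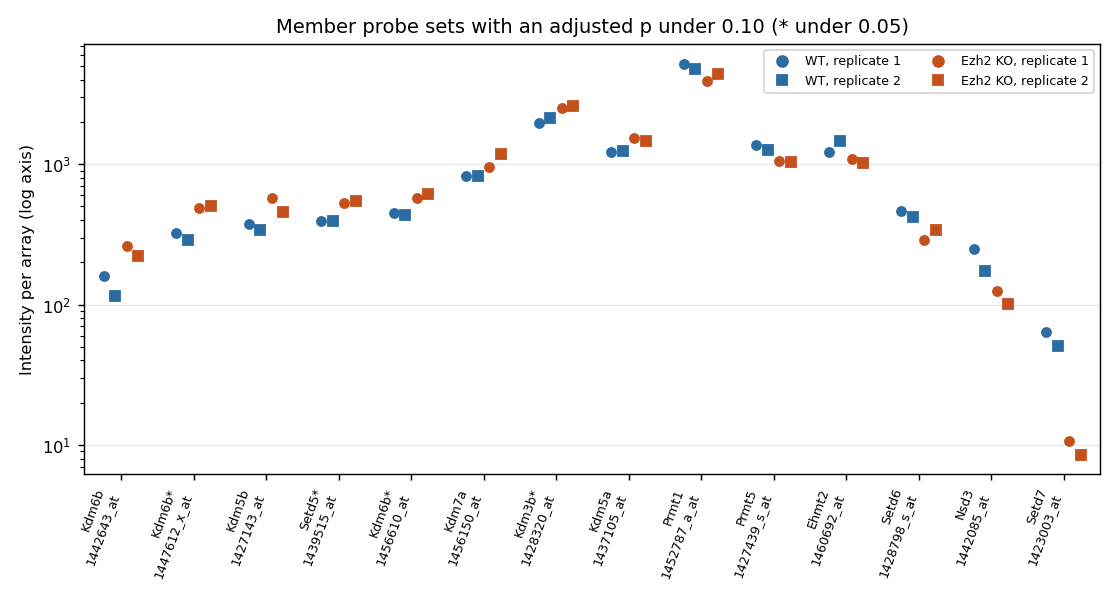
Intensity on each array (log axis) of the 14 member probe sets with an adjusted p under 0.10, ordered by log2 change from the highest to the lowest. WT is blue and Ezh2 KO orange, circles are replicate 1 and squares replicate 2, and the 4 starred probe sets have an adjusted p under 0.05; in the 8 on the left the Ezh2 KO arrays lie above the WT arrays and in the 6 on the right below them.

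The H3K27 demethylases had the highest median change of the 9 classes of enzymes into which the members were divided. Kdm6b, a JmjC enzyme whose gene is readily induced by inflammatory and growth signals in myeloid cells, was read by 3 tested probe sets. The brightest (1456610_at) stood at 452 and 433 on the WT arrays and 579 and 616 on the Ezh2 KO arrays, a 1.34-fold rise (log2 change 0.42, SE 0.11, adjusted p = 0.0490). A further one (1447612_x_at) stood at 323 and 287 in WT and 485 and 505 in Ezh2 KO, a 1.59-fold rise (log2 change 0.67, SE 0.13, adjusted p = 0.0123). The dimmest (1442643_at) went from 160 and 116 to 260 and 223 and had the highest log2 change of all tested members, 0.75, without passing (adjusted p = 0.0544). On each of the 3 probe sets both Ezh2 KO arrays lay above both WT arrays. Their changes did not differ beyond the spread: the largest difference from the brightest was 0.33 on the log2 scale (95% interval -0.27 to 0.94, adjusted p = 0.801).

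The firmness of the Kdm6b calls differed between its probe sets. That of 1447612_x_at, whose suffix marks probes that may also match other transcripts, was lost without WT replicate 2 (0.59, adjusted p = 0.0520) and with 1 common prior, and held without each of the other arrays. That of 1456610_at was lost without any 1 array, at 0.38 to 0.46 (adjusted p = 0.0791 to 0.175), with median centring (0.37, adjusted p = 0.0715) and with quantile normalization (0.40, adjusted p = 0.0640). Averaging the probe sets of each gene gave Kdm6b 0.62 (adjusted p = 0.0221). Another probe set, which carries the symbol of Kdm6b together with that of another gene, was not a member.

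Kdm6a, the X-linked enzyme of the same family, did not pass on its 3 tested probe sets. Its brightest read 1169 and 1427 in WT and 1321 and 1568 in Ezh2 KO, so that the groups overlapped (log2 change 0.15, 95% interval -0.11 to 0.42). Its last probe set was not tested, at 2.31 to 24.7 over the 4 arrays. All 6 tested probe sets of the class had a log2 change above 0, with a median of 0.36, where 53.4% of all tested probe sets were above 0 and the median of all was 0.03.

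The H3K4 demethylases of the Kdm5 family had 0 of 18 tested probe sets called by limma. At an unadjusted p under 0.05, 3 were higher (11.4% of all were) and 0 lower (10.5% of all were). Kdm5a, a retinoblastoma-binding enzyme, read 1218 and 1235 in WT and 1537 and 1463 in Ezh2 KO on its brightest probe set (log2 change 0.29, SE 0.08, adjusted p = 0.0613). Kdm5b read 375 and 340 against 575 and 457 (0.50, SE 0.14, adjusted p = 0.0624). In both the groups did not overlap. When each gene was represented by its brightest probe set only, fewer features were tested. Both then had an adjusted p under 0.05 (0.0385 for Kdm5a and 0.0442 for Kdm5b). Neither was called with median centring or averaged probe sets, where Kdm5a had 0.24 (adjusted p = 0.104) and 0.23 (adjusted p = 0.433). Kdm5c, whose gene is on the X chromosome, read 409 and 431 against 542 and 457 on its brightest probe set (0.24, adjusted p = 0.325). Its 8 tested probe sets ranged from -0.38 to 0.48 and the ninth lay below the filter, at 0.479 to 5.51 intensity units. The median of the class was 0.21.

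The JmjC enzymes of the Kdm2, Kdm3, Kdm4, Kdm7 and Kdm8 families act mainly on H3K9 and H3K36. Of their 19 tested probe sets 1 was called higher, against 4.08% of all. That was Kdm3b, an H3K9 demethylase, at 1979 and 2151 in WT and 2500 and 2585 in Ezh2 KO, a 1.23-fold rise (log2 change 0.30, SE 0.08, adjusted p = 0.0417). The lower Ezh2 KO array lay above the higher WT array. Its call was lost without any 1 array, at 0.24 to 0.36 (adjusted p = 0.0516 to 0.195), and with median centring (0.25, adjusted p = 0.0814). The second probe set of Kdm3b did not pass, at 299.6 and 304 against 250 and 326 (-0.07, adjusted p = 0.846). Averaged with it the gene had 0.11 (adjusted p = 0.560), yet the difference between both probe sets, -0.37, had an adjusted p of 0.643 (95% interval -0.77 to 0.03).

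Kdm7a, which removes H3K9 and H3K27 methylation, read 987 and 1028 against 1172 and 1212 on its brightest probe set (0.24, adjusted p = 0.128). Its next probe set read 830 and 827 against 949 and 1188 (0.35, adjusted p = 0.0979), and on both the groups did not overlap. The CpG-binding enzyme Kdm2b, which recruits a variant Polycomb complex to CpG islands, had a negative value, at 3909 and 4064 against 3391 and 3776 (-0.15, 95% interval -0.32 to 0.01, adjusted p = 0.265). Kdm2a read 459 and 507 against 570 and 613 on the brightest of its 6 tested probe sets (0.28, adjusted p = 0.179), and the others ran from -0.45 to 0.12. Kdm3a, Kdm4a, Kdm4b, Kdm4c and Kdm8 did not pass, with brightest probe sets between -0.31 and 0.19. The single probe set of Kdm4d was not tested, at 3.39 to 44.9.

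The amine oxidases differed little. Kdm1a, the LSD1 demethylase of H3K4, read 2111 and 1983 in WT and 2097 and 1998 in Ezh2 KO on its brightest probe set (log2 change 0.00077, 95% interval -0.17 to 0.17). Its second probe set read 625 and 681 against 729 and 706 (0.13, adjusted p = 0.507). Kdm1b read 537 and 610 against 521 and 615 (-0.02, 95% interval -0.29 to 0.26). For these transcripts limma called 0 of 3 probe sets, with 0 at an unadjusted p under 0.05. In a list of CoREST and LSD1 partners, including Rcor1, Hdac2 and Gfi1, limma called 0 of 30 tested probe sets over 12 genes. At an unadjusted p under 0.05, 4 were higher (11.4% of all were) and 0 lower (10.5% of all were).

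**Figure D2:**
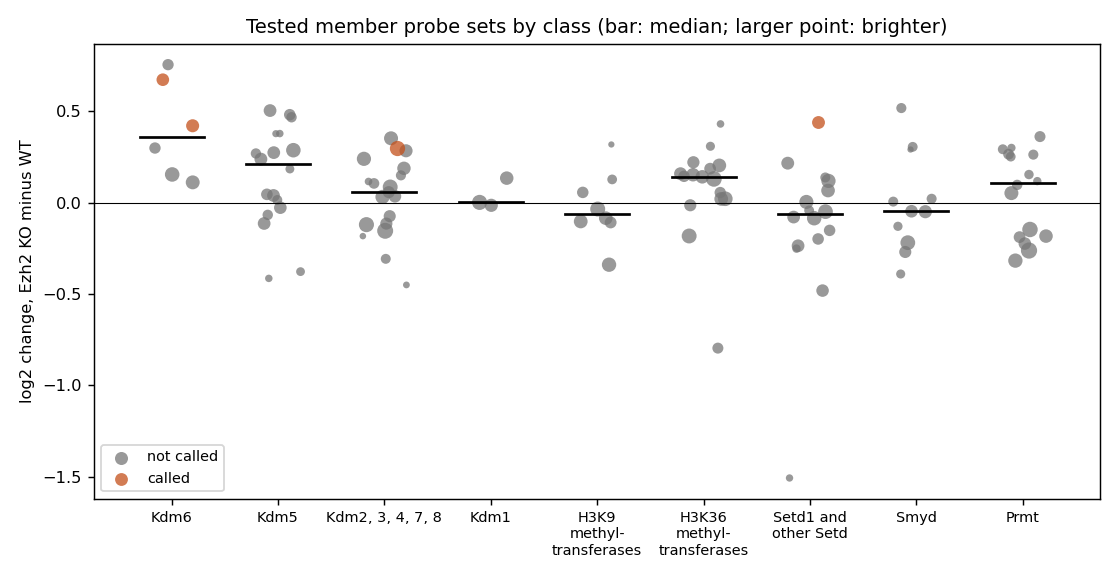
Log2 change (Ezh2 KO minus WT) of the 113 tested member probe sets, by class of enzyme. Each point is 1 probe set, larger where its mean intensity is higher, orange where called and grey where not, and the bar is the class median; the bar is highest for Kdm6, at 0.36, and the dim grey point at -1.51 is a probe set of Setd7.

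None of the probe sets of the H3K9 methyltransferases was called (0 of 8 tested by limma, 0 higher and 1 lower at an unadjusted p under 0.05). Ehmt2, known as G9a and the main writer of H3K9 dimethylation, read 1228 and 1468 in WT and 1090 and 1026 in Ezh2 KO (log2 change -0.34, SE 0.10, adjusted p = 0.0769). Both Ezh2 KO arrays lay below the WT arrays. Its partner enzyme Ehmt1 read 1880 and 1850 against 1820 and 1818 (-0.04, 95% interval -0.20 to 0.13). Setdb1 and Setdb2, writers of H3K9 methylation at repeated sequences and elsewhere, and Suv39h2, of constitutive heterochromatin, had -0.10, -0.09 and -0.11 on their brightest probe sets. In the list of their partners and of the HP1 proteins that bind H3K9 methylation, 32 probe sets over 12 genes were tested. At an unadjusted p under 0.05, 4 were higher and 0 lower, against 11.4% and 10.5% of all. By limma, 3 were called higher (9.38%, against 4.08% of all) and 0 lower. These were the brightest and the next probe set of Cdyl, a chromodomain protein that binds methylated H3K9 and H3K27 (1.33-fold and 1.42-fold, adjusted p = 0.0229 and 0.0143), and Tasor, of the HUSH silencing complex (1.29-fold, adjusted p = 0.0351). Both Cdyl calls were lost without WT replicate 1 (adjusted p = 0.124 and 0.0814), and that of Tasor in 6 settings (up to 0.161). With the common prior all 3 were lost (adjusted p = 0.197 to 0.249).

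The H3K36 methyltransferases also had 0 of 16 tested probe sets called by limma, with 0 higher and 2 lower at an unadjusted p under 0.05. The 16 probe sets read only 4 genes, so they do not count as independent. Of the 16, 13 had a log2 change above 0 (53.4% of all did), with a class median of 0.14. Both Ezh2 KO arrays lay above both WT arrays in 8 of the 16 (27.3% of all) and below in 2 (23.2% of all). Setd2, the enzyme of H3K36 trimethylation, read 1434 and 1482 against 1509 and 1450 (0.02, 95% interval -0.16 to 0.20). The brightest probe sets of Nsd1, Nsd2 and Nsd3 had -0.18, 0.02 and 0.13. Nsd3 gave different values between its probe sets. The brightest read 2771 and 2875 against 3102 and 3075, while 1442085_at read 249 and 174 against 126 and 102 (log2 change -0.80, adjusted p = 0.0657). That difference of -0.93 (95% interval -1.43 to -0.42, unadjusted p = 0.00276) did not pass over all pairs (adjusted p = 0.339). The change of 1442085_at had an adjusted p of 0.0426 with quantile normalization. Averaged over its probe sets Nsd3 had -0.01 (adjusted p = 0.961).

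In the Setd class 1 of 16 tested probe sets was called higher, against 4.08% of all. The called one was 1439515_at of Setd5, a SET-domain protein tied to chromatin repressors. It read 394 and 392 in WT and 534 and 546 in Ezh2 KO, a 1.36-fold rise (log2 change 0.44, SE 0.11, adjusted p = 0.0439). The brighter probe set of Setd5 read 772 and 707 against 754 and 795, so that its groups overlapped (0.07, adjusted p = 0.771). The difference between both was 0.38 (95% interval -0.04 to 0.79, adjusted p = 0.651). Another probe set of Setd5 (1441125_at) lay too low to be tested, at 6.96 and 11.2 against 53.2 and 16.3. It enters the averaged value that follows. The call was lost without any 1 array (0.43 to 0.46, adjusted p = 0.104 to 0.133), with quantile normalization (0.42, adjusted p = 0.0573), with median centring (0.40, adjusted p = 0.0633) and with averaged probe sets (0.48, adjusted p = 0.116).

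Setd7, a monomethyltransferase of H3K4 and of many other proteins, had the lowest log2 change of all tested members without passing. Its dim probe set 1423003_at read 63.4 and 50.7 in WT and 10.7 and 8.54 in Ezh2 KO (log2 change -1.51, SE 0.44, adjusted p = 0.0687), with both Ezh2 KO arrays below the filter intensity. The brightest probe set of Setd7 read 1646 and 1479 against 1502 and 1512 (-0.05, 95% interval -0.24 to 0.14). The difference between both, -1.46 (95% interval -2.07 to -0.85), had the smallest p of the 69 member pairs (unadjusted p = 5.34e-04, adjusted p = 0.203). The change of the dim one was -2.45 when 1 was added to each intensity and -0.72 when 64 was. Averaged over both probe sets Setd7 was called lower (-0.78, adjusted p = 0.0137). Setd6, which methylates the NF-kappaB subunit RelA, read 467 and 421 against 289 and 339 on 1428798_s_at (-0.48, adjusted p = 0.0669). Its adjusted p was 0.0469 under median centring. Setd6 was not called with quantile normalization or with averaged probe sets. Setd1a and Setd1b, the catalytic subunits of the H3K4 methyltransferase complexes shared by most active promoters, had -0.08 and 0.12 on their brightest probe sets. Of the shared subunits of these complexes (Wdr5, Ash2l and 6 others) limma called 0 of 15 tested probe sets, with 0 higher and 2 lower at an unadjusted p under 0.05.

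The Smyd proteins, SET enzymes with a MYND zinc finger, had 0 of 11 tested probe sets called by limma, with 0 higher and 1 lower at an unadjusted p under 0.05. That one was Smyd2, a methyltransferase of p53 and other proteins, at 1631 and 1782 against 1397 and 1530 (-0.22, adjusted p = 0.169). Smyd1, the enzyme of heart and skeletal muscle, had 3 of 6 probe sets below the filter and read at most 116 on any array.

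The arginine methyltransferases had 0 of 16 tested probe sets called by limma, with 0 higher and 2 lower at an unadjusted p under 0.05. Prmt5, the main enzyme of symmetric arginine dimethylation, read 1365 and 1260 in WT and 1061 and 1036 in Ezh2 KO (log2 change -0.32, SE 0.09, adjusted p = 0.0542). Prmt1, the main enzyme of asymmetric dimethylation, read 5220 and 4761 against 3939 and 4376 (-0.26, SE 0.08, adjusted p = 0.0730). In both the groups did not overlap. Prmt5 had an adjusted p under 0.05 with median centring (-0.36, adjusted p = 0.0300), with 1 probe set a gene (-0.32, adjusted p = 0.0337) and in the fit of averaged probe sets (-0.32, adjusted p = 0.0430), and Prmt1 with median centring (-0.31, adjusted p = 0.0409). With quantile normalization neither Prmt5 nor Prmt1 was called, and Prmt1 had -0.24 (adjusted p = 0.0952). Nor did Prmt1 pass with averaged probe sets (-0.26, adjusted p = 0.0729). Prmt3, Prmt6 and Prmt7 had -0.15, -0.22 and -0.18 on their brightest probe sets, Prmt2 and Prmt9 0.10 and 0.05. Dimmer probe sets of Prmt3 ran from -0.19 to 0.36, and those of Prmt6 and Prmt7 had 0.26 and 0.25. Over the class 10 of the 16 tested probe sets were above 0 (53.4% of all were), with a median of 0.11. Prmt8, a brain enzyme, lay below the filter at 1.35 to 13.5.

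Among the partners of Prmt5, 4 of 18 tested probe sets over 5 genes fell (22.2%, against 3.91% of all) and 0 rose. At an unadjusted p under 0.05, 7 were lower (38.9%, against 10.5% of all) and 0 higher. Wdr77, the obligate WD-repeat partner of Prmt5 in the methylosome, fell from 3029 and 3143 to 2452 and 2566 (1.23-fold, adjusted p = 0.0315). Clns1a, which brings Sm proteins of the splicing machinery to Prmt5, fell from 3035 and 3147 to 2426 and 2586 on one probe set (1.23-fold, adjusted p = 0.0326) and by 1.22-fold on another (adjusted p = 0.0402). Grwd1, a WD-repeat protein of ribosome assembly, fell from 851 and 929 to 569 and 647 (1.45-fold, adjusted p = 0.0150). The 5 tested probe sets of Riok1, the kinase that competes with Clns1a for Prmt5, ran from -0.10 to 0.34. The brightest probe set of Clns1a did not pass (-0.21, adjusted p = 0.0768). Calls of Wdr77 and Clns1a (the brighter called one) were lost under 5 settings each and that of Grwd1 under 2, beside the common prior, with adjusted p up to 0.124, 0.643 and 0.0756. The list was chosen with other results of these arrays known, and no test of the list was made.

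**Figure D3:**
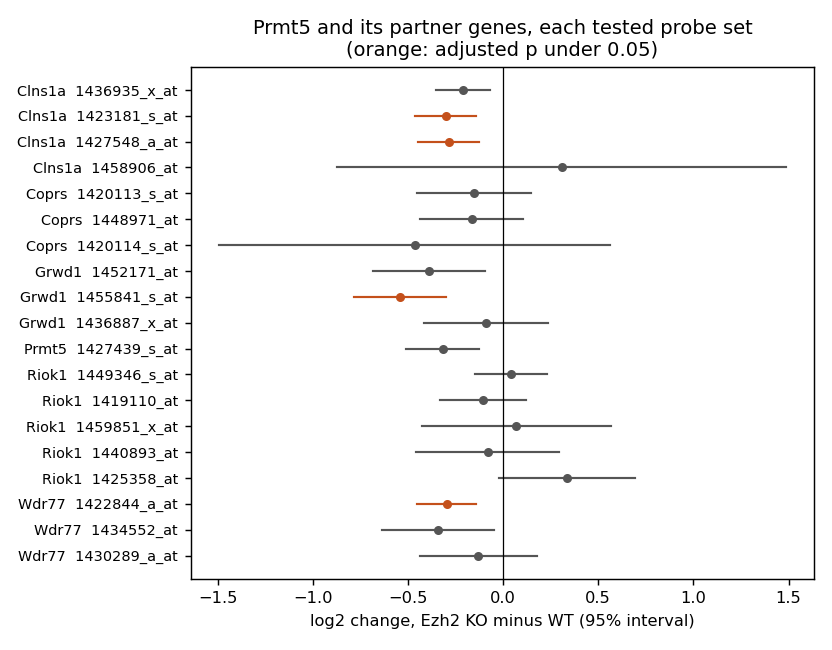
Log2 change (Ezh2 KO minus WT) with its 95% interval for the probe set of Prmt5 and the 18 tested probe sets of its partner genes. Orange marks an adjusted p under 0.05; the 4 orange probe sets belong to Clns1a, Grwd1 and Wdr77, and the interval of Prmt5 runs from -0.51 to -0.13.

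Demethylases and methyltransferases were set side by side through the brightest probe set of each gene, a view chosen after the values were seen. Of 16 demethylase genes, 13 had a log2 change above 0, with a median of 0.17. Of 28 methyltransferase genes, 8 did, with a median of -0.09. Over all 13928 genes 50.8% of brightest probe sets were above 0. Both Ezh2 KO arrays lay above both WT arrays in 9 of the demethylases and 2 of the methyltransferases (26.2% of all genes) and below them in 1 and 13 (26.4% of all genes). With median centring the counts above 0 were 11 and 5, and the medians 0.13 and -0.13. Over all their tested probe sets, dim ones included, the medians lay closer, at 0.11 for 46 of demethylases and 0.02 for 67 of methyltransferases. The latter was -0.03 with median centring. Above 0 were 33 of the 46 and 37 of the 67 (53.4% of all tested probe sets). Both Ezh2 KO arrays lay above both WT arrays in 20 and 17 of them (27.3% of all) and below in 3 and 16 (23.2% of all). No test of this contrast was made.

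**Figure D4:**
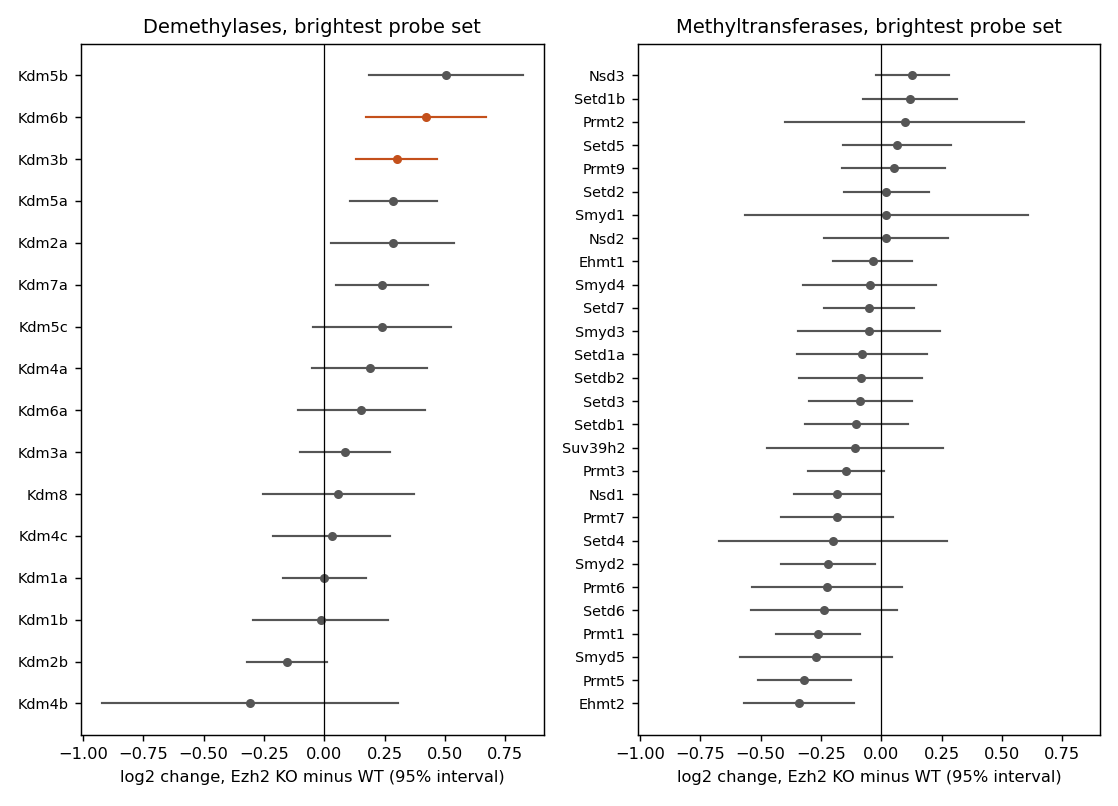
Log2 change (Ezh2 KO minus WT) with its 95% interval for the brightest tested probe set of 16 demethylase genes (left) and 28 methyltransferase genes (right), each ordered by value. Orange marks an adjusted p under 0.05, reached by Kdm6b and Kdm3b; 13 demethylase points and 8 methyltransferase points lie above 0.

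Probe sets of one gene were compared directly, since the change of a transcript can depend on the part that is read. Among 69 pairs of a further tested probe set with the brightest of its gene, limma called 0 at an adjusted p under 0.05 and 4 had an unadjusted p under 0.05 (5.80%, against 8.25% of 11652 pairs over all genes). Over all genes 1 pair (0.00858%) was called. The 4 pairs belonged to Setd7, Nsd3, Prmt3 and Kdm5b. In Prmt3 the further probe set had 0.36 and the brightest -0.15, and in Kdm5b -0.42 and 0.50. The changes had opposite signs in 28 of the 69 pairs (40.6%), against 35.0% of all pairs.

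**Figure D5:**
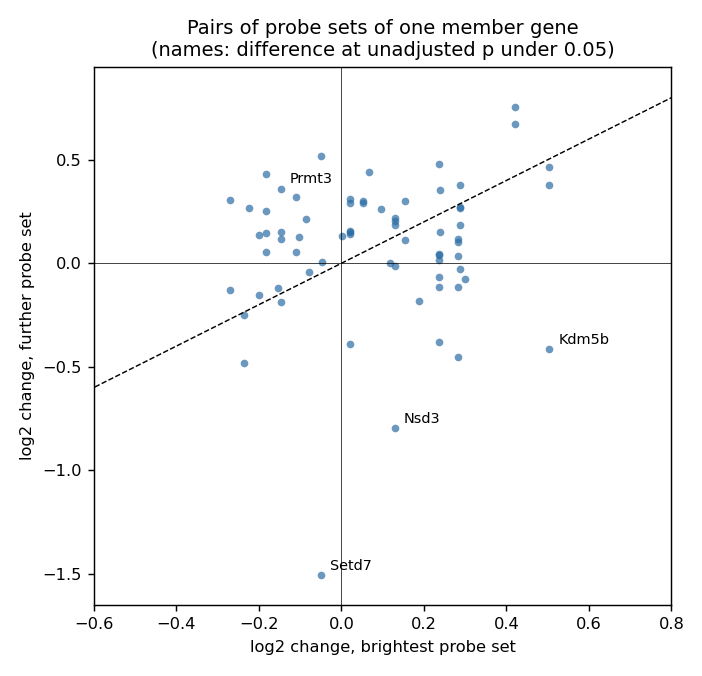
Log2 change (Ezh2 KO minus WT) of each further tested probe set against that of the brightest probe set of the same gene, for 69 pairs of member genes. The dashed line marks equal change and names mark the 4 pairs that differ at an unadjusted p under 0.05; the point of Setd7 is the lowest, at -1.51 against -0.05.

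Enzymes of the same kinds outside the naming rule were also read. Of other JmjC proteins 33 probe sets over 14 genes were tested. At an unadjusted p under 0.05, 8 were higher and 1 lower, against 11.4% and 10.5% of all. By limma, 3 were called higher (9.09%, against 4.08% of all) and 0 lower. All 3 were of Jarid2, a PRC2 cofactor whose JmjC domain has lost its activity (1.27-fold, 1.32-fold and 1.31-fold). The brightest of them went from 2442 and 2224 to 3041 and 2901 (adjusted p = 0.0232). Each call was lost in at least 2 settings beside the common prior, with adjusted p up to 0.198, and with the common prior (0.277 to 0.288). Of other methyltransferases, which include the H4K20 enzymes Kmt5a, Kmt5b and Kmt5c and the second H3K27 enzyme Ezh1, limma called 0 of 39 tested probe sets over 19 genes, with 2 higher and 3 lower at an unadjusted p under 0.05. Ezh1 read 596 and 640 in WT and 655 and 661 in Ezh2 KO on its brightest probe set (log2 change 0.09, adjusted p = 0.688).

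Promoter sequences from RefSeq (GRCm38.p6), 250 bases before to 50 after a transcription start, were given for 36 of the 46 genes, 45 promoters in all. PRC2 is recruited to some CpG-rich promoters but not to all, so CG dinucleotides were counted as a description. The 45 promoters held a median of 28 (0 to 65), against 7 over all 32851 promoters, and 43 of them held at least 1, as did 94.6% of all. The 3 sequences that follow are those of the member genes of smallest p that have an entry. The called genes Kdm6b and Kdm3b had no entry, nor had Kdm5a. Of the genes shown, Setd5 was called and Prmt5 and Kdm5b were not. Each CG is in capitals, and the sequences are written 5′ to 3′ on the strand of the gene.
Setd5: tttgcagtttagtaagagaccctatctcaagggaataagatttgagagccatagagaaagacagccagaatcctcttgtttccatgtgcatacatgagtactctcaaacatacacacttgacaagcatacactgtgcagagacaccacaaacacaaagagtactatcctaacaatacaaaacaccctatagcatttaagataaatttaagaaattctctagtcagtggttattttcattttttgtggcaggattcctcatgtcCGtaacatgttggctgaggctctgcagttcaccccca
Prmt5: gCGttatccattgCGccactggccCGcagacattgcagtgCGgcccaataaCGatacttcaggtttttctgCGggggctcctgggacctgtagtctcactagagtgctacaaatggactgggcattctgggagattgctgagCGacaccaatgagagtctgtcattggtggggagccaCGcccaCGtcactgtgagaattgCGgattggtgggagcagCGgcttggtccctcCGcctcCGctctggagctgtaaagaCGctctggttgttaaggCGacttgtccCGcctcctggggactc
Kdm5b: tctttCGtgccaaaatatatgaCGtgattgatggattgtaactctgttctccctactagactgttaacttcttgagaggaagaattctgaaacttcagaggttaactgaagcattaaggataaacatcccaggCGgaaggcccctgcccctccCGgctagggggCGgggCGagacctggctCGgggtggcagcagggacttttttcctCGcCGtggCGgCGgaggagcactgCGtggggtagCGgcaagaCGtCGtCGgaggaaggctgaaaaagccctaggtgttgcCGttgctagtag
The window given for Setd5 lies at chr6:113104685-113104984 on the plus strand and holds 1 CG. That of Prmt5 lies at chr14:54517421-54517720 on the minus strand with 16, and that of Kdm5b at chr1:134559928-134560227 on the plus strand with 17. Windows of one gene can differ widely: those of Kdm3a held 0, 40 and 24. Whether Setd5 has other starts was not examined, so its count need not describe the gene. These counts describe the windows only, and no methylation or binding was measured.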

How the data were processed

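The authors deposited 1 linear intensity for each probe set and array. The submitters' processing notes name Affymetrix Expression Console; its version and summary algorithm are not given in the sources used here. In the values, the mean of each array trimmed by 2% at each end was 500.0, so differences in total mRNA per cell are removed. Per the labels' protocols, Trizol-extracted RNA was labelled as biotinylated cRNA. Of 45101 probe sets, 64 controls, 932 with several gene symbols and 9160 outside the gene table were left out, leaving 34945 with 1 symbol.

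Probe sets whose mean intensity exceeded 21.9, the 30th percentile of non-control probe sets (25580), were tested as log2(intensity + 16) with limma 3.58.1 in R 4.3.3 (lmFit, then eBayes with a trended prior variance) and Benjamini-Hochberg adjustment over all of them. Because 16 was added, folds of dim probe sets are understated. Each had 2 residual degrees of freedom, 9.42 with the prior. The differences between probe sets of a gene were fitted in the same way over 11652 pairs. Probe sets were used instead of 1 per gene because the members are probe sets. In 10 simulated data sets of 25580 probe sets for the comparison of Ezh2 KO with WT, with 200 changed in each, 17.3% of log2 changes of 0.5, 51.9% of 1 and 75.9% of 2 were recovered, and 5.76% of calls were false. The noise was independent and drawn from the prior of the fit itself, so this false share does not measure that of the real arrays. Fewer probe sets were changed than the 2042 called in the data, so recovery may differ there.

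Members, lists, tests and alternatives were chosen with earlier results of these data known. The named genes were every called member, the brightest tested member of each class, the highest and lowest uncalled change, up to 3 called probe sets of each partner list, Ezh2 and Cdkn2a; other members were named after their values were seen. Alternatives were quantile normalization, median centring, other filters, pseudocounts of 1 and 64, 1 probe set or the mean per gene, other priors, a replicate block, other thresholds, probe sets with plain names only, and leaving out each array. The mean per gene took in all probe sets of the gene, also those below the filter. Figures used matplotlib 3.10.9 under Python 3.11.15.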

Additional observations from a re-analysis of the deposited data

How the results depend on the processing

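The fit as reported called 4 member probe sets in 3 genes. A common prior variance gave 0 and 0 (13 at an unadjusted p under 0.05), with 0 of all probe sets called. A 2-fold minimum gave 0 and 0 (against 1.53% of all probe sets), and no filter 1 and 1 (0.787%, against 3.52%). The 50th percentile filter gave 7 and 5 (7.14%, against 12.1%), and an adjusted p of 0.10 gave 14 and 12 (12.4%, against 12.7%). The replicate number as a block (replicate block) gave 14 and 12 (12.4%, against 13.6% of all probe sets). Median centring gave 5 in 5 genes (4.42%, against 8.64% of all), of which 1 was higher and 4 lower. It moved the median change of all probe sets from 0.03 to -0.02. Quantile normalization gave 2 higher and 1 lower (together 2.65%, against 8.03% of all). With 1 probe set a gene, 5 of 44 genes were called (11.4%, against 11.8% of all genes), and with the probe sets of a gene averaged 3 (6.82%, against 7.59%), 1 higher and 2 lower. Without 1 array the counts ran from 2 to 5 probe sets in 2 to 4 genes, lowest without WT replicate 2, and 0 or 1 of the 4 calls remained in each case. Same-numbered arrays deviated together only weakly (r = 0.0386 over probe sets), so the numbers are not taken to pair them. No pair of member probe sets was called by limma under any of 13 alternatives run for pairs. Among named values, signs turned only near 0: Kdm1a had -0.045 with median centring and -0.044 to 0.045 without 1 array, Nsd3 -0.012 with averaged probe sets, and the brightest probe set of Setd7 -0.126 to 0.026 without 1 array. At 2 arrays a group, changes of 0.5 on the log2 scale were mostly missed in simulation, and values near the filter intensity cannot be told from background.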
